A study of Mesocricetus auratus with 6 samples.

Results

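Cd24a, the simple keratins and a set of epithelial surface proteins were followed in the pregnant uterus of the golden hamster (Mesocricetus auratus). The set holds 9 genes, Cd24a, Epcam, Cdh1, Muc1, Prom1, Krt7, Krt8, Krt18 and Krt19, out of 12393 genes with a symbol on the array, and every probe set annotated with exactly 1 of these symbols was used, which gave 13 of 20380. The genes were chosen on values of the same comparison that is described here, above all the large difference of Cd24a, so the members' values, with their intervals and the counts of those past a threshold, are a description and test nothing.

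The tissue was uterus on day 5 of pregnancy from untreated animals, taken at the sites of embryo implantation (3 arrays) and from the embryo-free uterus between them, the interimplantation sites (3 arrays). The design text names 3 different animals as the source of the RNA, so arrays of a group are biological replicates. Whether both kinds of site came from the same animals is not stated. Total RNA of hamster was labelled with biotin and hybridised to an Affymetrix array whose probes were designed on mouse sequence, so mismatches can dim a probe set and shrink its difference, and levels of different genes were not ranked as amounts of RNA. Gene symbols follow the mouse annotation, and genome positions were not used here.

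The luminal epithelium of the uterus is a single layer of polarised cells to which the blastocyst attaches, and in rodents it is lost around the embryo after attachment. Keratins are the intermediate filaments of epithelial cells and assemble as pairs of a type II and a type I chain, with Krt8 and Krt18 as the usual pair of simple epithelia. On the cell surface, cadherins and Epcam hold neighbouring cells together, and mucins such as Muc1 form the glycan coat of the apical side. Trophoblast and mesothelium also make simple keratins, and B cells, neutrophils and red cell precursors also carry Cd24a.

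Cd24a stood far apart from the rest of the set. Its most intense probe set was 3.96-fold lower at implantation sites, and another was 3.44-fold lower, whereas the remaining Cd24a probe set and the 10 probe sets of the 8 other genes lay between −0.47 and 0.00068 on the log2 scale. Calls were made at an adjusted p under 0.05 (limma, Benjamini-Hochberg adjustment over all 22626 tested probe sets). Pieces of whole uterus were measured, so fewer cells of a type and less RNA per cell cannot be told apart. Of the 13 probe sets 2 were called lower, both of Cd24a, against a background of 1.05% of all probe sets called lower. None was called higher by limma, where the background was 1.26%, and at an unadjusted p under 0.05 the counts were 4 lower and 0 higher, where 8.35% and 5.63% of all probe sets were. Because this comparison chose the genes, nothing is read from these shares.

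All values are log2 signals after RMA, or robust multi-array averaging, a method that subtracts background, equalises the arrays and summarises the probes of a set. Differences are implantation minus interimplantation, and SE stands for the standard error from limma. The array medians lay between 4.55 and 4.57. As a mark of low signal, 27 control probe sets for Bacillus transcripts had a median level of 2.68, and the brightest of them reached 5.79. The 18 hybridisation control probe sets, which report RNA added in known amounts, averaged 6.64 ± 0.17 on implantation arrays and 7.03 ± 0.27 on interimplantation arrays (SD, n = 3 each), with ranges of 6.45 to 6.77 on implantation arrays and 6.75 to 7.27 on interimplantation arrays. Scaling the arrays to these controls raised every difference by 0.40 and moved the median of all probe sets to 0.38, against −0.02 as deposited. The directions given here for the deposited values hold relative to the other probe sets.

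Cd24a encodes a small, heavily glycosylated protein anchored to the membrane by a lipid tail, and it can act as a ligand of P-selectin. By probe set 1448182_a_at it measured 4.30, 4.46 and 4.51 on the implantation arrays, against 6.42, 6.36 and 6.44 on the interimplantation arrays. The groups were far apart and each was tight, at 4.42 ± 0.11 and 6.41 ± 0.04 (SD, n = 3 each). The difference was −1.99 (SE 0.09, 95% interval −2.17 to −1.80), and its rank was 2 from the lowest of the 22626 probe sets.

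Probe set 1437502_x_at of Cd24a gave 4.11, 4.24 and 3.97 at implantation sites and 5.36, 5.50 and 6.81 at interimplantation sites. The groups did not overlap, but interimplantation array 3 lay well above the other two. The difference was −1.78 (SE 0.28, 95% interval −2.40 to −1.17), and without interimplantation array 3 it was −1.32. In the manufacturer's naming, a marks probes shared by transcripts of 1 gene, and x marks probes that may also match other genes. On the implantation arrays 1448182_a_at exceeded 1437502_x_at by 0.19, 0.22 and 0.54, and on the interimplantation arrays by 1.06, 0.86 and −0.37, so the probe sets ranked interimplantation array 3 differently.

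The third Cd24a probe set, 1416034_at, was dim and showed no separation. It read 2.94, 2.75 and 3.14 at implantation sites and 3.02, 3.19 and 3.01 at interimplantation sites. The difference was −0.13 (SE 0.11, 95% interval −0.36 to 0.10), and its mean over all arrays exceeded the Bacillus median by 0.33. This was the sole Cd24a probe set without a suffix for shared probes, so with shared probe sets left out no Cd24a call was made.

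**Figure D1:**
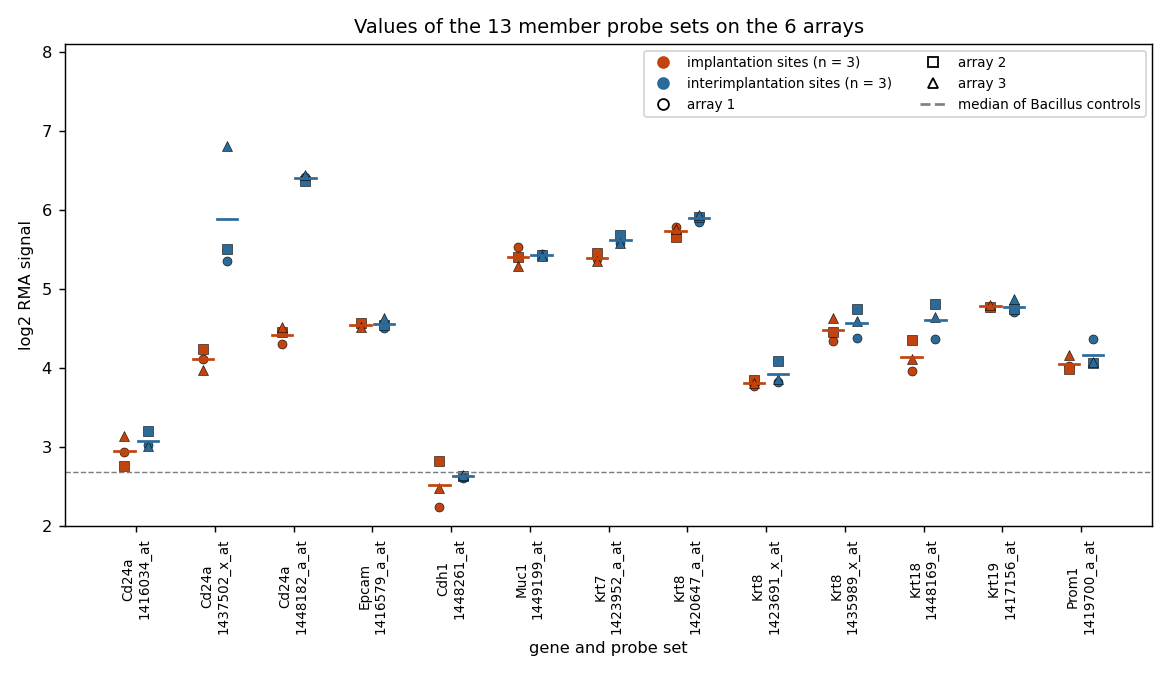
Log2 RMA signal (vertical axis) of the 13 probe sets (horizontal axis) on 3 implantation arrays, orange, and 3 interimplantation arrays, blue, with a symbol per array, bars at the group means and a dashed line at the Bacillus median of 2.68. Cd24a by 1448182_a_at lies at 4.30 to 4.51 in orange and 6.36 to 6.44 in blue, while most other pairs of groups lie close together.

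Among the keratins, Krt18, the type I partner of Krt8, had the lowest difference. It read 3.97, 4.35 and 4.11 at implantation sites and 4.37, 4.81 and 4.65 at interimplantation sites. The groups nearly touched without overlap, because implantation array 2 was nearly as high as interimplantation array 1. The means were 4.14 ± 0.19 and 4.61 ± 0.22 (SD, n = 3 each), with a difference of −0.47 (SE 0.13, 95% interval −0.74 to −0.19), and the probe set was not called. It was called in 4 of its 14 alternatives, among them array weights, the hybridisation controls as a covariate (−0.80), and the fit without interimplantation array 1 (−0.59).

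Krt8, the type II partner, differed less by each of its 3 probe sets. By its most intense one, 1420647_a_at, it read 5.78, 5.66 and 5.76 at implantation sites and 5.85, 5.91 and 5.93 at interimplantation sites. These groups did not overlap, and the difference was −0.16 (SE 0.08, 95% interval −0.34 to 0.01). With 1423691_x_at the values were 3.77, 3.84 and 3.80 at implantation sites and 3.82, 4.08 and 3.85 at interimplantation sites, a difference of −0.11 (SE 0.09). Here the groups overlapped, since implantation array 2 exceeded interimplantation array 1. With 1435989_x_at the values were 4.34, 4.45 and 4.63 at implantation sites and 4.38, 4.74 and 4.59 at interimplantation sites, a difference of −0.09 (SE 0.11), again with overlap.

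Krt7, a type II keratin of glandular and ductal epithelia, read 5.38, 5.45 and 5.35 at implantation sites and 5.58, 5.68 and 5.58 at interimplantation sites. All 3 implantation arrays were below all 3 interimplantation arrays, with a difference of −0.22 (SE 0.08, 95% interval −0.40 to −0.04), and the probe set was not called. Krt19, a small type I keratin that lacks the usual tail, read 4.77, 4.77 and 4.79 at implantation sites and 4.71, 4.75 and 4.88 at interimplantation sites. Its groups overlapped and their means differed by 0.00068 (SE 0.08, 95% interval −0.18 to 0.18). A keratin probe set without a difference on this array does not show an unchanged transcript.

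The surface and adhesion genes other than Cd24a showed small differences with overlapping groups. Epcam, an adhesion molecule that binds its like on neighbouring cells, read 4.54, 4.56 and 4.52 at implantation sites and 4.50, 4.54 and 4.63 at interimplantation sites (difference −0.01, SE 0.08, 95% interval −0.19 to 0.16). Muc1, the membrane mucin of the apical surface, read 5.53, 5.41 and 5.29 at implantation sites and 5.44, 5.43 and 5.41 at interimplantation sites (difference −0.02, SE 0.09, 95% interval −0.21 to 0.17). Muc1 varied more among the implantation arrays (SD 0.12) than among the interimplantation arrays (SD 0.02).

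Cdh1, the cadherin of epithelial adherens junctions, had a mean signal 0.11 below the Bacillus median, and it was the only one of the 13 probe sets not above that level. The brightest Bacillus control was exceeded by 1 of the 13, Krt8 by 1420647_a_at. Cdh1 read 2.24, 2.83 and 2.47 at implantation sites and 2.60, 2.64 and 2.64 at interimplantation sites (difference −0.11, SE 0.12). A signal this low may come from mismatched probes and shows neither presence nor absence of the transcript. Prom1, a cholesterol-binding protein of membrane protrusions, read 4.02, 3.98 and 4.16 at implantation sites and 4.36, 4.06 and 4.07 at interimplantation sites (difference −0.11, SE 0.10). Its groups overlapped, and interimplantation array 1 was higher than the other 5 arrays.

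Across the set, 12 of the 13 differences were below 0, where 56.5% of all probe sets were, and the median difference was −0.11, against −0.02 for all tested probe sets. In 5 probe sets, those of Krt7 and Krt18, 1 of Krt8 and 2 of Cd24a, all implantation arrays were below all interimplantation arrays, and in none were they all above. Over all probe sets, 11.7% were apart with implantation lower and 7.62% with implantation higher. With scaling to the hybridisation controls, 10 of the 13 differences were positive, Krt18 moved to −0.07, and the 2 called Cd24a probe sets were at −1.59 and −1.39. Relative to the median of all probe sets under that scaling, 11 of the 13 remained lower, the same number as with the deposited values, as must be when every difference is shifted alike.

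**Figure D2:**
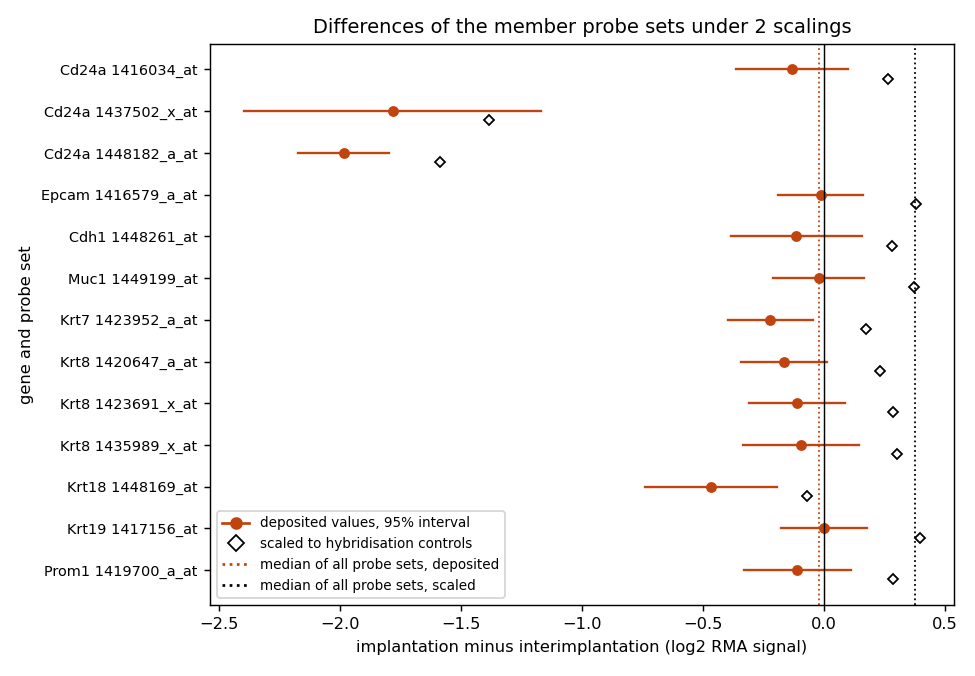
Difference between implantation and interimplantation arrays in log2 RMA signal (horizontal axis) for each probe set (vertical axis), with the 95% interval of the limma fit for the deposited values and diamonds for values scaled to the hybridisation controls. Dotted lines mark the medians of all probe sets, −0.02 as deposited and 0.38 scaled. The diamonds of 10 probe sets lie above 0, while the Cd24a diamonds at −1.59 and −1.39 lie far below it.

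Other genes of the epithelium were read beside the set, each by its most intense probe set. This list and those below were chosen with earlier results of these data known. Their counts and adjusted p are therefore a description and no independent support. Of 42 listed genes of uterine and other epithelia 40 were measured, 4 fell, 0 rose and 36 did not pass (limma; 9 lower and 1 higher at an unadjusted p under 0.05). Over all 12393 genes, 1.18% were called lower and 1.36% higher, and at an unadjusted p under 0.05 the shares were 8.67% lower and 6.14% higher. The list median was −0.09, against −0.02 over all genes, and 30 of the 40 differences were below 0, where 56.2% of all genes were.

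Krt10, a type I keratin known from the upper layers of the epidermis, fell by 0.60 on the log2 scale (SE 0.10, limma adjusted p = 0.00611). It read 2.94, 3.20 and 3.12 at implantation sites and 3.59, 3.82 and 3.66 at interimplantation sites, so the groups were apart at a low signal. It was the only one called of the 10 keratins outside the set, and the other 9 had differences of −0.12 to 0.18. Cldn7, a tight junction claudin, fell by 0.78 (SE 0.13, limma adjusted p = 0.00868), and Wnt7b, a WNT ligand made by the luminal epithelium, fell by 0.50 (SE 0.09, limma adjusted p = 0.0112). Sox17, a transcription factor of the epithelium, fell by 0.53 (SE 0.12, limma adjusted p = 0.0467), but its other probe set was at 0.07. With the probe sets of each gene averaged, Sox17 was not called, and the claudin Cldn3 was (−0.41, adjusted p = 0.0135). With scaling to the hybridisation controls Krt10, Cldn7, Wnt7b and Sox17 were at −0.21, −0.39, −0.11 and −0.13 and were not called, with adjusted p from 0.155 to 0.644. With the hybridisation controls as a covariate Krt10 alone of these 4 was called. Of all 22626 probe sets 13 were called lower with the scaling and 130 with the covariate, against 238 as deposited. Wnt7b and Sox17 were not called without implantation array 1 (adjusted p = 0.0768 and 0.174), and Sox17 was called in 6 of its 13 alternatives.

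The 4 measured mucins other than Muc1 (Muc4, Muc13, Muc15 and Muc20) lay between −0.17 and 0.05 and none was called. In the list of desmosome, hemidesmosome and adherens junction genes, which anchor keratins and cadherins, 24 of 26 were measured and none was called (limma; 5 lower and 0 higher at an unadjusted p under 0.05). The median of these 24 genes was −0.06. The desmosomal plaque protein Dsp, which ties keratin filaments to the membrane, was at −0.29 (SE 0.08, limma adjusted p = 0.113) with groups that did not overlap. The desmosomal plaque proteins Pkp2 and Pkp3 were at −0.25 and −0.26, and Itgb4, the integrin chain of hemidesmosomes, was at −0.23 (limma adjusted p from 0.235 to 0.284). For Dsp, Pkp2 and Pkp3 these were the lowest of several probe sets, and the highest were at −0.07, 0.14 and −0.04.

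Of 17 mesenchymal genes all were measured and none was called (limma; 3 lower and 0 higher at an unadjusted p under 0.05), with a median of −0.01. Vim, the intermediate filament of mesenchymal cells, was at −0.29, Twist2, a mesenchymal transcription factor, at −0.25, the surface protein Thy1 at −0.25 and the growth factor receptor Pdgfra at −0.25 (limma adjusted p from 0.269 to 0.362). With its probe sets averaged, Pdgfra was called lower (−0.47, adjusted p = 0.0241).

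Markers of other cells that can carry Cd24a or simple keratins gave no call with limma. Of the B cell list 7 of 8 were measured, with 1 lower at an unadjusted p under 0.05 and a mean level of 5.49 to 5.59 on implantation arrays and 5.53 to 5.55 on interimplantation arrays. Ms4a1, a B cell surface protein, was at −0.31 (limma adjusted p = 0.206), while Ighm, Cd79a and Cd22 were at 0.13, 0.10 and 0.08. The other Ms4a1 probe set was at 0.02, and the lowest of the 11 Ighm probe sets was at −0.26. Of the neutrophil list 7 of 8 were measured, none at an unadjusted p under 0.05, with a mean level of 5.29 to 5.43 on implantation arrays and 5.30 to 5.46 on interimplantation arrays. S100a8, S100a9, Ngp and Mpo lay between −0.12 and 0.09.

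The erythroid list had 4 of 7 genes measured, and its mean level was 4.73 to 4.78 on implantation arrays and 4.81 to 4.87 on interimplantation arrays. Alas2, the enzyme that starts haem synthesis in red cell precursors, was at −0.35 (limma adjusted p = 0.195), the 1 gene of this list at an unadjusted p under 0.05, and Epb42, Slc4a1 and Hba-a1 were at 0.05, −0.02 and 0.01. The lowest of the 3 Slc4a1 probe sets was at −0.30, and the other Epb42 probe set was at −0.001. The trophoblast list had 9 of 10 genes measured, with a mean level of 4.39 to 4.46 on implantation arrays and 4.48 to 4.54 on interimplantation arrays and none at an unadjusted p under 0.05. Ascl2, Elf5 and Eomes were at −0.21, −0.18 and −0.13, and Cdx2 was at 0.11. The other probe sets of Elf5, Eomes and Cdx2 were at 0.01, 0.05 and −0.04, and the highest of the 3 Ascl2 probe sets was at −0.03. The mesothelium list had 3 of 5 genes measured, Msln, Wt1 and Upk3b, at −0.12, −0.10 and −0.06, with a mean level of 4.06 to 4.13 on implantation arrays and 4.08 to 4.26 on interimplantation arrays and none at an unadjusted p under 0.05. The other Upk3b probe set was at −0.19. The brightest Bacillus control was exceeded by 0 of the 4 erythroid, 1 of the 9 trophoblast and 0 of the 3 mesothelium genes. For B cells it was 3 of 7 genes and for neutrophils 2 of 7. A lack of calls at such signals does not show that these cells were equally frequent in both groups. The part of the cells of these lists in the Cd24a difference was not tested.

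**Figure D3:**
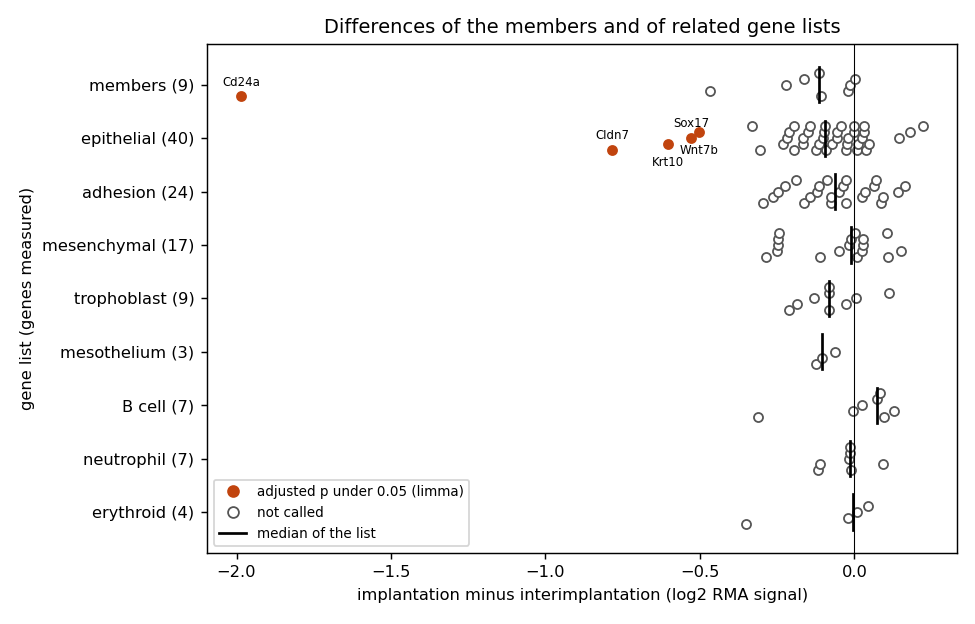
Difference between implantation and interimplantation arrays in log2 RMA signal (horizontal axis) for the members and 8 gene lists (vertical axis), 1 point per gene by its most intense probe set, filled where the limma adjusted p was under 0.05, with a bar at each median. Cd24a at −1.99 lies apart from every other point, and the 4 called genes of the epithelial list lie between −0.78 and −0.50. With scaling to the hybridisation controls every point would shift by 0.40 to the right.

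The labelled tissue was checked on its markers. Of 5 epithelial markers, all members, 4 exceeded the Bacillus median, with Cdh1 below it. All 6 stromal and all 5 smooth muscle markers exceeded it. So did 20467 of all 22626 tested probe sets and all 9 measured trophoblast genes, so exceeding this median does not identify a tissue. Over all genes 1.18% were called lower, and of the 5 smooth muscle markers 2 were called lower and 3 were not called. Their mean level was 5.97 to 6.41 at implantation sites and 6.68 to 7.08 at interimplantation sites, and Actg2 and Tagln, contractile genes, were at −1.74 and −1.26 (limma adjusted p = 0.00621 and 0.00343). Acta2, Des and Myh11 were at −0.24, 0.13 and 0.06 by their most intense probe sets and were not called. Their other probe sets were at −0.20, −0.09 and −0.85. Tagln was called in all 14 of its alternatives and Actg2 in 11 of 13. The part of a different share of muscle in the members' differences was not tested.

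The genes whose pattern was most like that of Cd24a were sought among 484 probe sets with 1 symbol and an SD of at least 0.3 over the arrays. By Pearson's r with 1448182_a_at over the 6 arrays, the 5 highest were Ogt (0.995), Ccnl2 (0.984), Irf3 (0.983), Sgms1 (0.981) and Rps24 (0.981). The arrays fall into the compared groups, so such an r mostly repeats the gap between groups. Ogt, which transfers a single sugar to proteins inside the cell, read 5.40, 5.67 and 5.44 at implantation sites and 7.24, 7.27 and 7.29 at interimplantation sites. Its difference of −1.76 was near that of Cd24a, while those of Ccnl2, a cyclin of the splicing machinery, Irf3, a transcription factor of the interferon response, Sgms1, an enzyme of sphingomyelin synthesis, and Rps24, a ribosomal protein, were smaller, from −0.65 to −0.55. Sgms1 was dim, at 2.61, 2.58 and 2.65 at implantation sites, below the Bacillus median of 2.68, and 3.32, 3.13 and 3.35 at interimplantation sites. Irf3 and Rps24 were read by x probe sets, whose probes may also match other genes. No member was considered as a candidate.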

How the data were processed

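Per the submitters' processing notes, the authors used Partek 6.6 and RMA. The deposited table held 22690 probe sets with 1 value per array. No label states the log base; the deposited values were read as log2, as RMA normally gives and as their range fits. After removal of 64 controls, 22626 probe sets were fitted with limma 3.58.1 in R 4.3.3 (lmFit and eBayes, group as the only term, two-sided). In the platform annotation 20380 probe sets had 1 symbol, 691 had several and 1555 had none. The number of arrays limits the precision. The calculation was tested on simulated data. The members, the gene lists and the alternatives were chosen with earlier results of these data known. The text names every member probe set, every called list gene, the up to 4 list genes with the smallest p and the 5 probe sets most like Cd24a. Some other genes of the lists are named with their family. The alternatives were other variance models, array weights, normalizations, both uses of the hybridisation controls, filters, a replicate block and leaving out each array. No sequence is shown. Deviations from the group means of same-numbered arrays correlated at −0.09, 0.07 and −0.03, so the numbers were not taken to pair the arrays.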

Additional observations from a re-analysis of the deposited data

How the results depend on the processing

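Of the 13 member probe sets 2 were called lower. The count was 1 with a trended and robust variance, where Cd24a by 1437502_x_at was not called, and 0 without shared probe sets, where neither called Cd24a probe set was tested. Leaving out single arrays gave 2 to 3. With the replicate number as a block the count was 3, with Krt18 added. With the hybridisation controls as a covariate it was 2, Cd24a by 1448182_a_at and Krt18. Probe set 1448182_a_at lay between −2.03 and −1.59 in the 13 alternatives that held it, which is no independent support, since its difference chose the gene. The 4 lower genes of the epithelial list numbered 0 with scaling to the hybridisation controls, 1 with them as a covariate, 2 without shared probe sets, and 2 to 4 without single arrays, with 2 without implantation array 1. Over all 22626 probe sets the lower calls fell as well, from 238 to 13 with that scaling and 130 with the covariate. They were 96 of 15605 without shared probe sets and 88 of 22626 without implantation array 1. The drop was therefore not particular to the epithelial list. In the mesenchymal list 1 gene, Pdgfra, was called lower when all probe sets of a gene were averaged. The cause was not tested, apart from the probe sets that a filter removed. Of the 148 counts under alternatives 141 stayed within 1.5 times, and of 173 member differences 157 moved by less than the SD within groups and no called one changed sign. Most of these counts were 0 in the main fit and stayed 0. A changed variance model, a filter or the replicate block left each difference as it was. These totals therefore say little about stability, and the counts that moved were mainly those of lower members and lower epithelial genes. Dim signals, of Cdh1 above all, limit what can be seen.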
